A study of Mus musculus with 2 samples.

Results

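The 10 genes described here code for the MHC class I complex and for what supplies it with peptide. They are the heavy chains H2-K1 and H2-D1, the light chain B2m, the peptide transporter Tap1 and Tap2, the loading factor Tapbp, the immunoproteasome subunits Psmb8, Psmb9 and Psmb10, and the transactivator Nlrc5. They were taken by symbol from the 56941 features of the files, each matching 1 feature. In the study, MC38-LM3b cells, a liver-seeking derivative of the murine colorectal line MC38, carried shScramble (Ctrl) or shSLAMF3 (KD), a short hairpin against SLAMF3 (gene Ly9), and were injected into the spleen of C57BL/6 mice of 6 to 8 weeks. After 2 weeks, liver lesions of 3 mice per group were pooled, enriched for CD45+ cells and sequenced as 1 droplet-based 3' library per group. The hairpin was in the injected cells only, so the immune and endothelial cells of both groups were host cells of the same strain.

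MHC class I molecules show peptides from inside the cell to CD8+ T cells and hold back NK cells, and nearly all nucleated cells carry them. Peptides are cut by the proteasome, pumped into the endoplasmic reticulum by the Tap1-Tap2 transporter and handed by tapasin, the product of Tapbp, to a heavy chain bound to beta-2-microglobulin. Interferon-gamma, in part through Irf1, raises these genes together with Nlrc5, a co-activator that acts at the shared upstream box of class I promoters. It also brings in Psmb8, Psmb9 and Psmb10 in place of the constitutive subunits Psmb5, Psmb6 and Psmb7.

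The upstream sequences of 4 genes are shown because H2-K1 and H2-D1, the heavy chains whose ratios to Ctrl are set side by side below, have closely similar upstream sequence, and B2m and Tap1 stand for the light chain and the transporter. RefSeq windows on GRCm38.p6 were matched for 8 of the 10 genes, without Tap2 and Nlrc5. H2-K1 matched 2 windows, of which the first listed was used. Each sequence below is the 200 bases before the annotated start, 5' to 3' on the strand of the gene. Capitals mark GGGANTNCC (kB-like), GAANNGAAA (IRF-like), GAANNNGAA (ISRE-like), TTCNNNGAA (GAS-like), TGACG and ATTGG, searched on both strands, where matches of different motifs may overlap.
H2-K1, chr17:34000348-34000547, minus strand: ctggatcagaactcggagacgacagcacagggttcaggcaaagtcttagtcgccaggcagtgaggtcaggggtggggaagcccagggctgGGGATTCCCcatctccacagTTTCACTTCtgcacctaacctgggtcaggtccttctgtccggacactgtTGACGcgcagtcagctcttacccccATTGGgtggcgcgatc
H2-D1, chr17:35262894-35263093, plus strand: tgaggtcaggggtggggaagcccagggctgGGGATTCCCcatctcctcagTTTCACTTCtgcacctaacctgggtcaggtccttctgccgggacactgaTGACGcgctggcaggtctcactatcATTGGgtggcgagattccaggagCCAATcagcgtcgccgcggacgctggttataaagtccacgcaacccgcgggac
B2m, chr2:122147487-122147686, plus strand: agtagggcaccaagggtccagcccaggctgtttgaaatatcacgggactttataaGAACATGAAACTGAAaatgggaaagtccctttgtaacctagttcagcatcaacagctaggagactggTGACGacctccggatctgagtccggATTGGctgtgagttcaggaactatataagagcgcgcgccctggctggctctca
Tap1, chr17:34187356-34187555, plus strand: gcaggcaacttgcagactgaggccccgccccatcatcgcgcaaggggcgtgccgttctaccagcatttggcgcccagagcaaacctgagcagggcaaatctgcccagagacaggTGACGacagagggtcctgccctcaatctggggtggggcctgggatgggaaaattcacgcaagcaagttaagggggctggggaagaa

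Both heavy-chain genes held the kB-like, the IRF-like, the TGACG and the ATTGG letters in the same order. The kB-like letters began at position -110 from the start in H2-K1 and at -170 in H2-D1, and TGACG at -41 and -101. The spacing between these letters was the same in both genes. Positions are counted from the annotated start, which for H2-K1 is that of the window used. H2-D1 held ATTGG a further time, on the opposite strand at -53. B2m held 2 overlapping ISRE-like matches, then TGACG and ATTGG. Tap1 held only TGACG, and its start lies 226 bases from that of Psmb9 on the other strand, so their windows share sequence. Over all 32851 windows of the same length, 2.72% held the kB-like letters, 5.0% the IRF-like, 14.4% the ISRE-like, 5.49% the GAS-like, 15.7% TGACG and 29.3% ATTGG. A match describes letters only, and the motifs were picked with these sequences in view.

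After filtering, 9814 Ctrl and 10185 KD cells remained, with a median of 5411.5 and 4989 UMIs (unique molecular identifiers, 1 per captured transcript) per cell, and the libraries shared 27 barcodes. Ly9 stood at 21.0 CPM (UMIs of a gene scaled to a common total) in Ctrl and 18.8 CPM in KD over all cells. This does not check the hairpin because host lymphocytes and macrophages carry Ly9, with 580 UMIs in Ctrl and 472 in KD in macrophages. In keratin+ cells, the tumour-like cells described below, there were 10 Ly9 UMIs in Ctrl (5.95 CPM) and 4 in KD (4.02 CPM), so a knockdown was not detectable at this depth. Granulocyte markers were at a higher level in other classes in KD. Their summed level in macrophages, as a share of that in granulocytes, was 0.455% in Ctrl and 1.86% in KD, and in endothelial-like cells it was 0.0420% in Ctrl and 1.21% in KD. Cells were put in 11 classes by clusters and marker genes, of which 10 held at least 50 cells in both libraries, and Kupffer cells held 48 Ctrl and 83 KD. Levels below are CPM of a class, summed over its cells, with exact Poisson 95% intervals. As a group is a single library, no test could be run and no p-value is given. Every interval covers counting error only, and the hairpin, the mice and the library cannot be told apart. Fewer cells of a state and less RNA per cell cannot be told apart in a summed level either. A gene is called past the fold when its log2 ratio of KD over Ctrl was at least 0.5 in size and its counting interval left out 0.

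The classes were first compared in Ctrl. Psmb8 and Psmb9, inducible subunits of the proteasome, had the widest range among them. Psmb8 was highest in conventional dendritic cells (cDCs), which present antigen to T cells, at 1219 CPM (1178 to 1261). Macrophages followed at 796 CPM (785 to 807), and endothelial-like cells were lowest at 169.8 CPM (147 to 195). The order was alike for Psmb9, at 961 CPM in cDCs, 529 in macrophages and 171 in endothelial-like cells, and the intervals of cDCs overlapped those of no other class for either gene. At the low end of Psmb9, the intervals of endothelial-like and NK cells overlapped. Psmb10 was highest in macrophages, at 306 CPM (299 to 312), and lowest in B cells, at 79.5 CPM (61.3 to 102), where the interval overlapped that of endothelial-like cells, at 93.2 CPM (76.4 to 113).

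Heavy chains followed another order. H2-K1 was highest in tumour-like or fibroblast-like cells at 3257 CPM (3179 to 3337), above CD4+ T cells at 2976 CPM (2863 to 3092), and lowest in endothelial-like cells at 1727 CPM (1652 to 1805) and B cells at 1760.0 CPM (1669.5 to 1854), which did not differ beyond their intervals. H2-D1 was highest in granulocytes at 2564 CPM (2492 to 2639), above Kupffer cells at 1667 CPM (1546 to 1794) and tumour-like or fibroblast-like cells at 1661 CPM (1605 to 1718), whose intervals overlapped. B cells were lowest in H2-D1 at 863 CPM (799.6 to 929). Reads from H2-K1, H2-D1 and the H2-Q genes can be hard to place, since these are near-identical paralogs. Whether Cell Ranger counted or dropped such reads limits any comparison of their levels.

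B2m, the light chain of every class I molecule, ranged from 1545 CPM in B cells to 3324 in Kupffer cells, whose interval overlapped that of macrophages at 3155. Tap1 ranged from 91.2 CPM in NK cells to 274 in cDCs. The intervals of cDCs and granulocytes (242 CPM) overlapped, as did those of NK and endothelial-like cells. Granulocytes were highest in the other loading genes, with Tap2 at 211 CPM (191 to 233) and Tapbp at 351 CPM (325 to 379.6). Nlrc5 was highest in granulocytes at 237 CPM (215 to 260.3) and in tumour-like or fibroblast-like cells at 189 CPM (171 to 209). It was lowest in endothelial-like cells at 47 CPM (35.3 to 61.3), where the interval overlapped that of Kupffer cells, at 56.7 CPM.

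**Figure D1:**
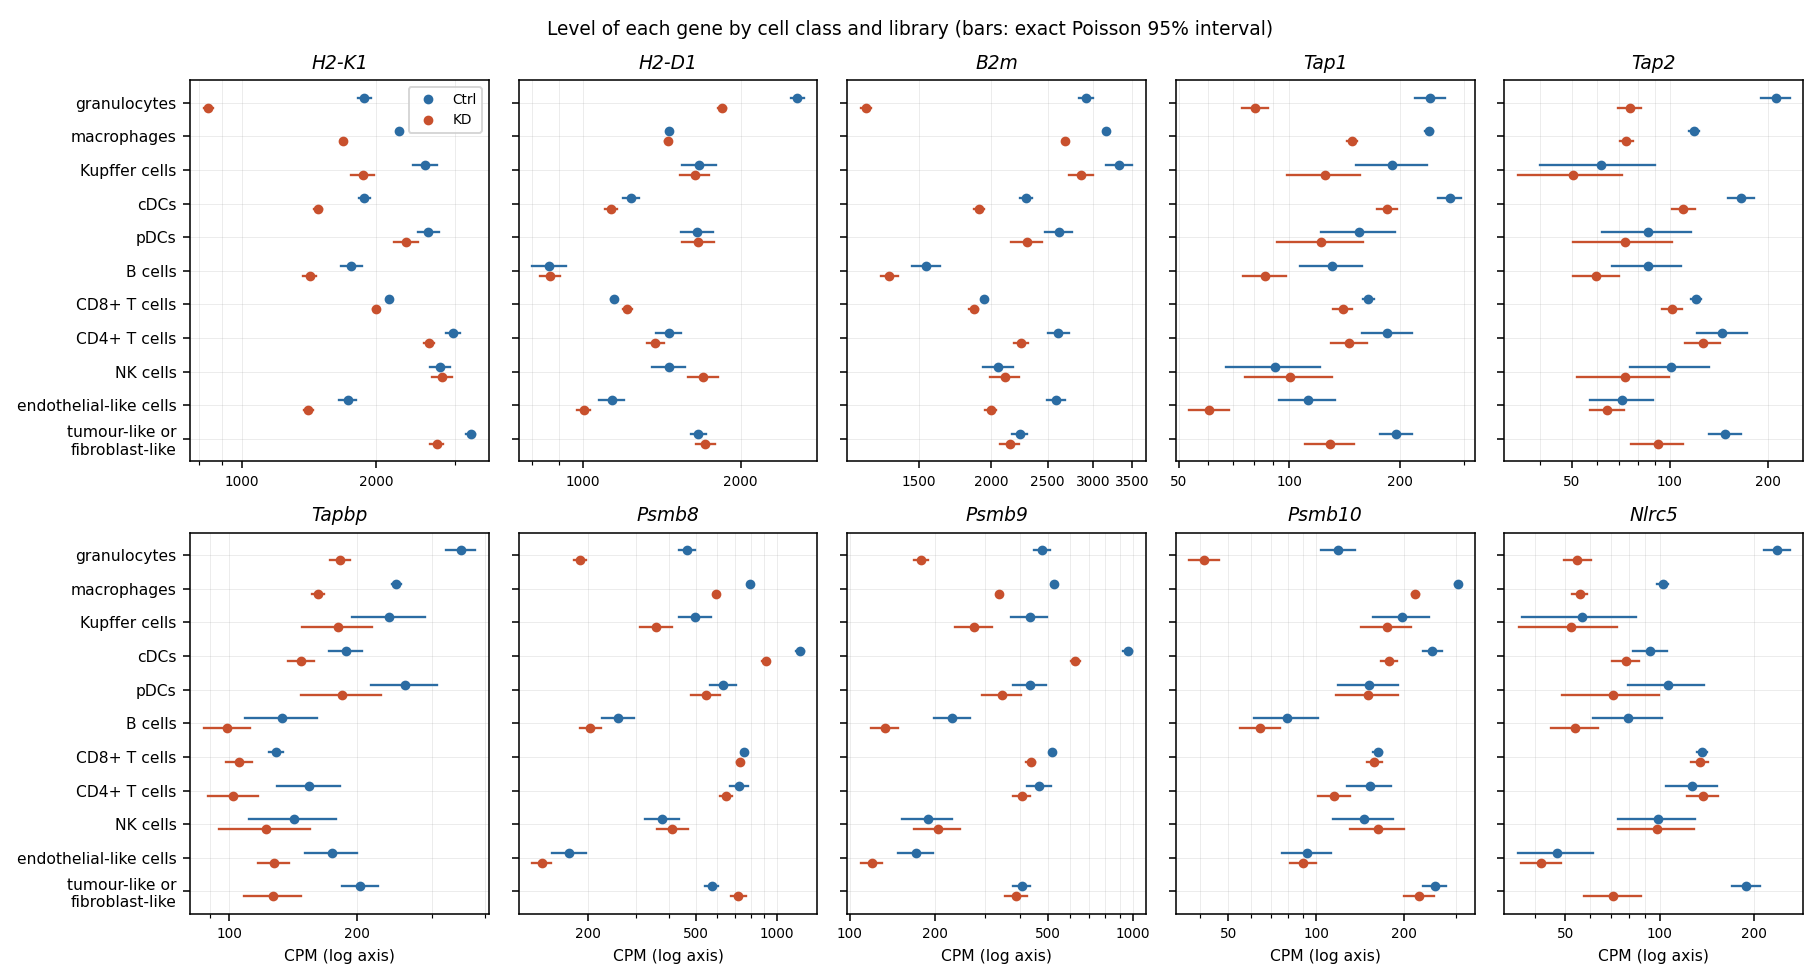
Level of each of the 10 genes in CPM (log axis, with its own range in each panel) by cell class, for Ctrl (blue) and KD (orange), 1 library each. Points are the summed level of a class and bars the exact Poisson 95% interval, and granulocytes show the widest gaps between the libraries, with Nlrc5 at 237 CPM in Ctrl and 54.6 CPM in KD.

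In KD the genes were at a lower level in most classes, down to a log2 ratio of -2.12 for Nlrc5 in granulocytes. The median of the 10 ratios was near 0 in CD8+ T cells, at -0.08 (range -0.29 to 0.08), and in NK cells, at 0.08 (range -0.47 to 0.22). Over all cells the 10 genes took 0.824% of UMIs in Ctrl and 0.667% in KD. No gene was past the fold upward in any of the 11 classes. Tap1 was lower past the fold in 7 classes, Psmb9 in 6, Tap2 in 5, Tapbp and Nlrc5 in 4 each, and H2-K1, B2m, Psmb8 and Psmb10 in granulocytes alone. H2-D1 was past the fold in none of the 11 with totals as the scale, and lay below 0 in 6.

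**Figure D2:**
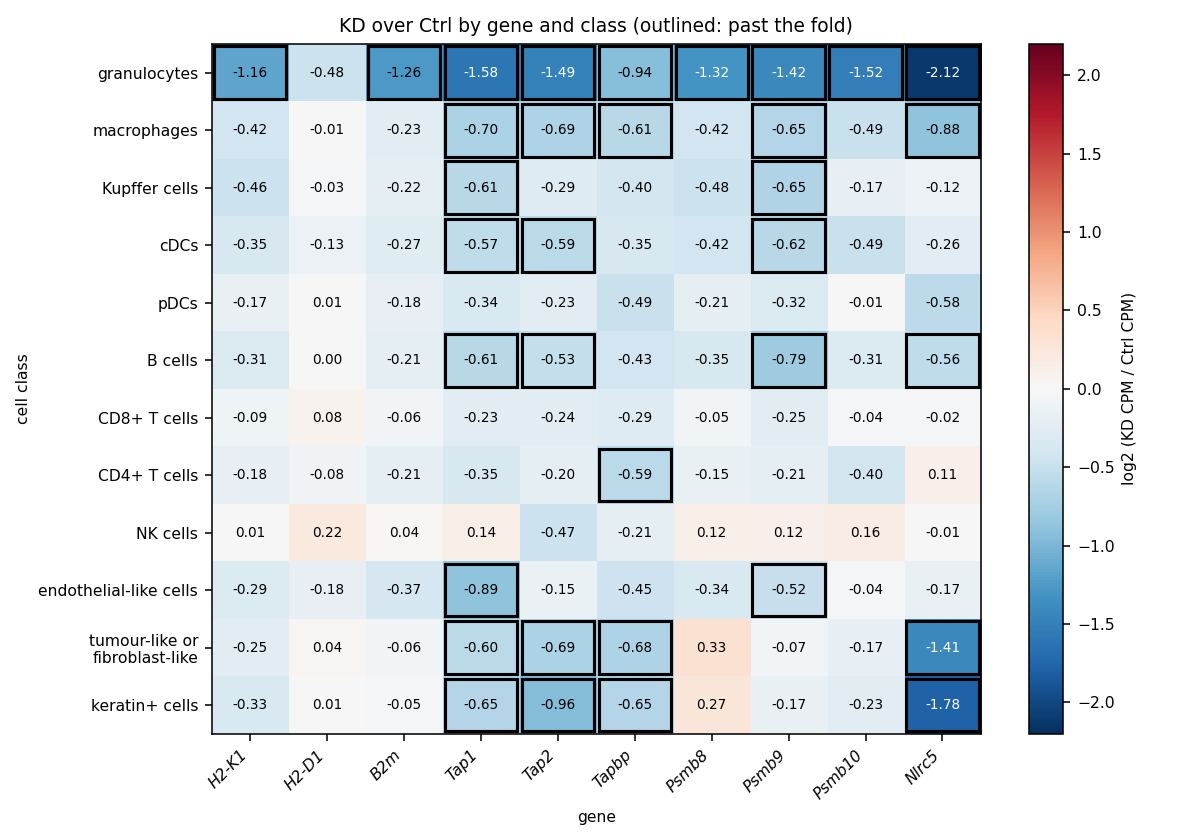
Log2 ratio of KD over Ctrl CPM for each gene (columns) in each class (rows), with keratin+ cells, a subset of the tumour-like or fibroblast-like class, as the last row. Black outlines mark ratios past the fold, which cover 9 of 10 genes in granulocytes and none in pDCs, CD8+ T cells and NK cells.

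Granulocytes, mostly neutrophils by S100a8, S100a9 and Csf3r, showed the widest differences. The class held 779 Ctrl and 2220 KD cells with a median UMI count of 2149 in Ctrl and 2810.5 in KD. Of the 10 genes, 9 were lower past the fold, against 15.0% of all 7190 genes measured in the class, and 0 were higher, against 18.2%. The median log2 ratio was -1.37 for the 10 genes and 0.13 for all genes.

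Nlrc5 in granulocytes was at 237 CPM in Ctrl (215 to 260.3) and 54.6 CPM in KD (49.4 to 60.3), a log2 ratio of -2.12 (-2.32 to -1.92) or 4.34-fold. For the transporter, Tap1 was at 242 CPM in Ctrl (219.9 to 265) and 80.7 CPM in KD (74.3 to 87.5), a log2 ratio of -1.58 (-1.76 to -1.40). Tap2, its partner chain, was at 211 CPM in Ctrl and 75.3 CPM in KD, a log2 ratio of -1.49 (-1.68 to -1.30). The folds of Ctrl over KD for the transporter chains were 3.0 and 2.81, and no interval of one library reached the other. Tapasin was less far apart, with Tapbp at 351 CPM in Ctrl and 183 CPM in KD and a log2 ratio of -0.94 (-1.08 to -0.81).

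The immunoproteasome subunits were lower in granulocytes by similar amounts. Psmb8 was at 465 CPM in Ctrl and 186 CPM in KD, a log2 ratio of -1.32 (-1.44 to -1.19). Psmb9 was at 478 CPM in Ctrl and 179 CPM in KD, a log2 ratio of -1.42 (-1.54 to -1.29). Psmb10 was at 119 CPM in Ctrl and 41.4 CPM in KD, a log2 ratio of -1.52 (-1.78 to -1.26). The 3 intervals overlap, so an order among the subunits cannot be read.

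The molecule itself divided. H2-K1 was at 1879 CPM in Ctrl (1817 to 1943) and 840.3 CPM in KD (819 to 862), a log2 ratio of -1.16 (-1.22 to -1.10), and B2m at 2912 CPM in Ctrl and 1215 CPM in KD, a log2 ratio of -1.26 (-1.31 to -1.21). H2-D1, the other heavy chain, was at 2564 CPM in Ctrl and 1841 CPM in KD, and its log2 ratio of -0.48 (-0.53 to -0.43) did not reach the fold. Scaling by TMM or DESeq2 factors moved the ratio of H2-D1, granulocytes, to -0.60 and -0.61, past the fold, which made 10 of 10, while UMIs per cell put it at -0.0076 and left 8 of 10. No share of all genes was computed on these scales. In H2-K1, granulocytes overlapped B cells in Ctrl and were lowest of the 11 classes in KD, while in H2-D1 they were highest in both libraries.

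Granulocyte states differed in number between the libraries, so ratios were also taken within clusters. In the finer clustering, cluster 1, led by Cxcl10 and Gbp5, held 672 Ctrl and 1043 KD cells, and cluster 7, led by Wfdc17, Rdh12 and Retnlg, held 74 and 987. In cluster 1, 9 of the 10 genes were lower past the fold, against 10.8% of all genes there, with Nlrc5 at 283 CPM in Ctrl and 101 CPM in KD and a log2 ratio of -1.48 (-1.72 to -1.25). H2-K1 in that cluster had a log2 ratio of -0.64 (-0.71 to -0.57) and Tap1 of -1.33 (-1.56 to -1.10). In cluster 7, 5 of 10 were lower past the fold, against 8.18%, with H2-K1 at -0.82 (-1.0 to -0.63), B2m at -0.78 (-0.93 to -0.63) and Nlrc5 at -1.79 (-2.34 to -1.20), while Psmb10, at a low level there, had a ratio of 0.58 (-0.69 to 2.23). The gaps of H2-K1 and B2m within both clusters were smaller than the class values above. Immature cells led by Camp and Ngp (finer cluster 20) numbered 31 in Ctrl and 189 in KD. In them 3 of 10 genes were lower past the fold, against 6.73%, with a median log2 ratio of -0.43, smaller in size than that of the class. Macrophage markers in granulocytes summed to 516 CPM in Ctrl and 527 CPM in KD, all 10 of them detected in both libraries, and their part in the ratios was not tested.

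Macrophages, monocytes included, were the class of most cells, with 4123 Ctrl and 3088 KD. Here 5 of the 10 genes were lower past the fold, against 10.7% of 13377 genes, and 0 higher, against 7.13%. All 10 lay below 0, with a median of -0.55 against -0.03 over all genes.

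Nlrc5 was again farthest apart, at 102 CPM in Ctrl (98.5 to 106) and 55.6 CPM in KD (52.7 to 58.7) and a log2 ratio of -0.88 (-0.97 to -0.78). The loading genes came next, with Tap1 at 241 CPM in Ctrl and 148 CPM in KD, a ratio of -0.70 (-0.76 to -0.64), Tap2 at -0.69 and Tapbp at -0.61. Psmb9 was at 529 CPM in Ctrl and 338 CPM in KD, a log2 ratio of -0.65 (-0.69 to -0.61). The transactivator, transporter, tapasin and Psmb9 thus passed the fold, whereas the other subunits and the chains of the molecule did not. Psmb8 had a ratio of -0.42 (-0.45 to -0.39), Psmb10 of -0.49 (-0.54 to -0.44), H2-K1 of -0.42 (-0.43 to -0.40) and B2m of -0.23 (-0.25 to -0.22). H2-D1 was at 1461 CPM in Ctrl and 1451 CPM in KD, a ratio of -0.01 (-0.03 to 0.01). KD macrophages held more UMIs per cell (median 5591 in Ctrl and 7426 in KD), and when UMIs per cell were compared with no scaling to the total, only 1 of the 10 genes was lower past the fold. No share of all genes was computed on that scale.

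Macrophages were re-clustered without the compared genes, and 6 sub-clusters held at least 50 cells in both libraries. Macrophage states also differed in number between the libraries. Sub-cluster 6, led by Ltc4s and Pf4, held 6 Ctrl and 341 KD cells, and sub-cluster 9, led by Pf4 and Ccl6, held 1 and 51. Nlrc5 in sub-cluster 6 was at 26.4 CPM in KD. The part of these cells in the class ratios was not tested. The number of genes below 0 in KD was 9 or 10 of 10 in each of the 6 larger sub-clusters. In sub-cluster 4, led by Il1a and Cxcl1, 8 genes were lower past the fold, against 8.37% of all genes there, with Tap1 at 275 CPM in Ctrl and 124 CPM in KD (log2 ratio -1.15) and Tap2 at -1.29. In sub-cluster 3, led by the monocyte gene Vcan, 6 were, against 8.18%, with Nlrc5 at 117 CPM in Ctrl and 46.6 CPM in KD (-1.33) and H2-K1 at 1486 CPM in Ctrl and 941 CPM in KD (-0.66). These were the sub-clusters of inflammatory cytokine and of monocyte genes. Sub-cluster 2, of low UMI counts, had 5, against 9.54%. Sub-cluster 0, led by Ccl8 and Mmp12, had 3, against 6.79%, and cycling sub-cluster 5 had 1, against 10.2%. Sub-cluster 1, led by interferon-inducible genes such as Isg15, Ifit3 and Gbp2, had 0, against 7.25%, and it held 1053 Ctrl but 187 KD cells. The sub-clusters differ in depth, so their counts are not ranked. With equal weights for the 6 sub-clusters, Nlrc5 had a mean log2 ratio of -0.78, Psmb9 of -0.66, Tap1 of -0.64 and H2-K1 of -0.38. Granulocyte markers in macrophages summed to 329.9 CPM in Ctrl and 2223 CPM in KD, and their part in the ratios was not tested.

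**Figure D3:**
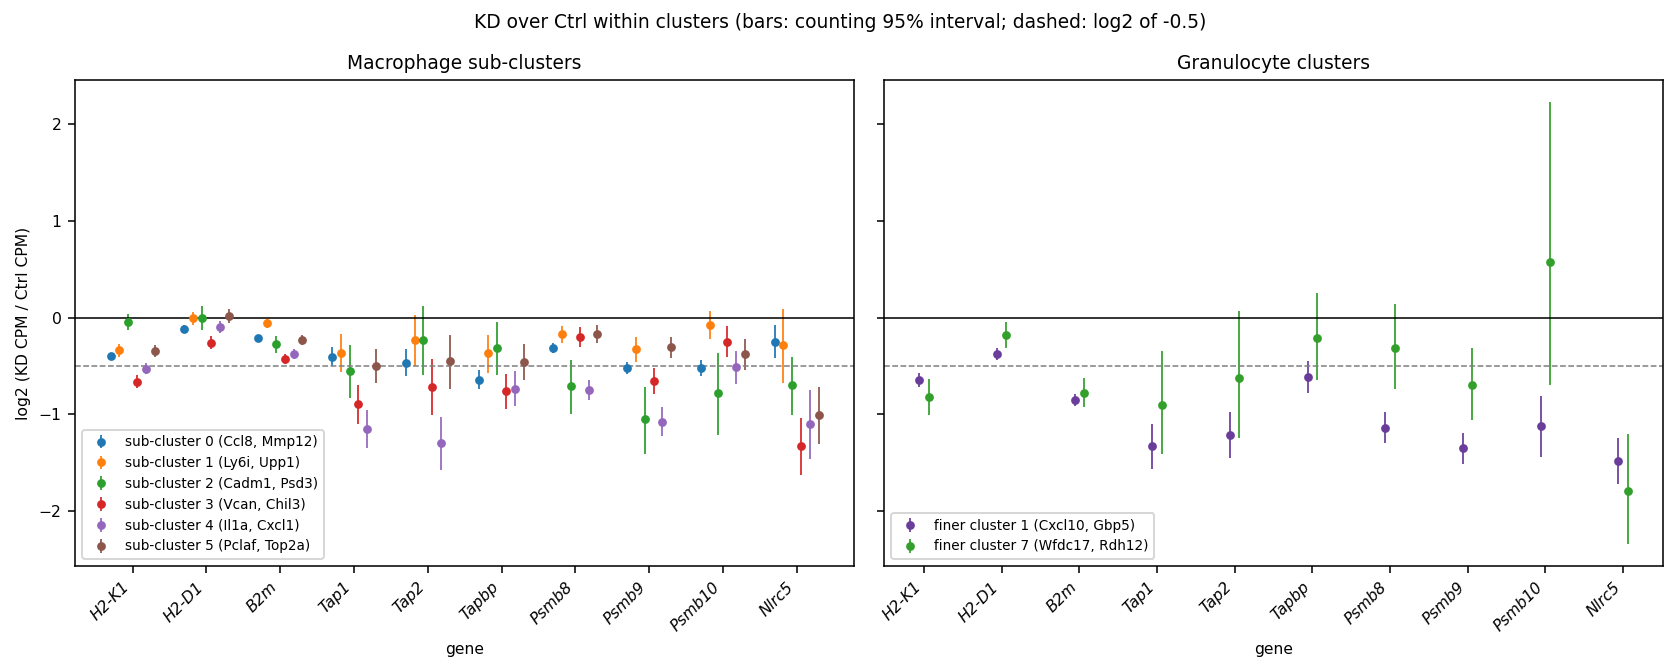
Log2 ratio of KD over Ctrl within the 6 macrophage sub-clusters (left) and the finer granulocyte clusters 1 and 7 (right), by gene. Points are ratios, bars the exact conditional 95% counting interval and the dashed line a log2 ratio of -0.5; H2-D1 lies nearest to 0 in most clusters, and Nlrc5 reaches -1.79 in granulocyte cluster 7.

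The other antigen-presenting cells were lower in fewer genes. In cDCs (381 Ctrl and 579 KD cells), 3 genes were lower past the fold, against 5.94% of all genes, and 0 higher, against 5.97%. Psmb9 was at 961 CPM in Ctrl and 627 CPM in KD, a log2 ratio of -0.62 (-0.69 to -0.54), Tap1 at 274 CPM in Ctrl and 185 CPM in KD, a ratio of -0.57 (-0.71 to -0.43), and Tap2 at -0.59. By UMIs per cell, 0 of the 10 were lower past the fold in cDCs, and no share of all genes was computed on that scale. Xcr1+ or Clec9a+ cDCs, the cross-presenting type, numbered 139 Ctrl and 159 KD and had 5 genes lower past the fold, against 7.77% of all genes, with Psmb10 at -0.65 (-0.90 to -0.40) and H2-K1 at -0.51 (-0.60 to -0.42). Psmb8 in these cells was at 1456 CPM in Ctrl and 1055 CPM in KD and Psmb9 at 1179.9 CPM in Ctrl and 777 CPM in KD, above the value of each of the 11 classes in both libraries.

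B cells (271 Ctrl and 871 KD cells) had 4 genes lower past the fold, against 5.23%, and 0 higher, against 2.79%. Psmb9 was at 229.9 CPM in Ctrl and 133 CPM in KD, a log2 ratio of -0.79 (-1.05 to -0.52), Tap1 at 131 CPM in Ctrl and 85.7 CPM in KD, a ratio of -0.61 (-0.95 to -0.26), Nlrc5 at -0.56 (-1.0 to -0.11) and Tap2 at -0.53 (-0.95 to -0.09). H2-D1 stood at 863 CPM in Ctrl and 865 CPM in KD, a ratio of 0.00 (-0.12 to 0.13).

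Plasmacytoid dendritic cells (pDCs, 82 Ctrl and 73 KD cells) had 0 lower, against 7.84%, and 0 higher, against 5.36%, though Nlrc5 stood at 106 CPM in Ctrl and 70.8 CPM in KD, with a wide interval of its ratio, -0.58 (-1.26 to 0.07). Kupffer cells, the resident liver macrophages, had 2 lower, Psmb9 at -0.65 (-0.96 to -0.34) and Tap1 at -0.61 (-1.08 to -0.14), against 10.2%, and 0 higher, against 7.32%. Erythroid markers in Kupffer cells summed to 2.36 CPM in Ctrl and 4325 CPM in KD and granulocyte markers to 127 CPM in Ctrl and 2853 CPM in KD, and their part in the ratios was not tested. The Ctrl value of the class rests on 48 cells, and Nlrc5, at 56.7 CPM in Ctrl and 52.0 CPM in KD, had a ratio of -0.12 (-0.93 to 0.70).

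The named T cell and NK cell classes had few ratios past the fold. CD8+ T cells (2587 Ctrl and 913 KD cells) had 0 genes lower past the fold, against 5.13%, and 0 higher, against 3.92%, with a median of -0.08. Their counts are large enough to bound the ratios: Nlrc5 was at 137 CPM in Ctrl and 134 CPM in KD, a log2 ratio of -0.02 (-0.13 to 0.08), and B2m at -0.06 (-0.09 to -0.03). Still, Tapbp at -0.29 (-0.40 to -0.18), Psmb9 at -0.25 (-0.31 to -0.20) and Tap1 at -0.23 (-0.33 to -0.14) lay below 0, as they did in macrophages. CD4+ T cells (153 Ctrl and 378 KD cells) had 1 lower, Tapbp at 154 CPM in Ctrl and 102 CPM in KD and -0.59 (-0.91 to -0.27), against 5.41%, and 0 higher, against 3.87%. NK cells (140 Ctrl and 145 KD cells), which sense the loss of class I, had 0 lower, against 7.85%, and 0 higher, against 4.01%, and 3 of 10 below 0. The lowest ratio in NK cells was that of Tap2, at -0.47, and the intervals of 0 of the 10 genes lay wholly below 0. H2-K1 in NK cells was at 2788 CPM in Ctrl and 2810.3 CPM in KD and Nlrc5 at 99.0 CPM in Ctrl and 98.4 CPM in KD, with a wide interval of the Nlrc5 ratio, -0.01 (-0.59 to 0.57).

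Non-immune cells came through the CD45 enrichment in small numbers. Endothelial-like cells (150 Ctrl and 645 KD cells), with all 9 endothelial markers present and Stab2 of the liver sinusoid at 1711 CPM in Ctrl and 2848 CPM in KD, had 2 genes lower past the fold, against 10.1%, and 0 higher, against 7.92%. Tap1 was at 112 CPM in Ctrl (93.8 to 133) and 60.5 CPM in KD (53.4 to 68.3), a log2 ratio of -0.89 (-1.20 to -0.58), and Psmb9 at 171 CPM in Ctrl and 119 CPM in KD, a ratio of -0.52 (-0.76 to -0.27). Psmb9 lost the fold under TMM and DESeq2 scaling and under the stricter cell filter, which left 1 gene. B2m was at -0.37 (-0.43 to -0.31) and H2-K1 at -0.29 (-0.37 to -0.22), both short of the fold. Macrophage markers in these cells summed to 1586 CPM in Ctrl and 2178 CPM in KD. That was 15.9% of their level in macrophages in Ctrl and 19.0% in KD. S100a9, a granulocyte transcript, was at 13.1 CPM in Ctrl and 751 CPM in KD in these cells. The part of these transcripts in the levels and ratios was not tested.

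The last class held tumour-like or fibroblast-like cells (161 Ctrl and 96 KD). Of the 8 tumour markers, 3 were over 10 CPM, the keratins Krt8, Krt18 and Krt19. Epcam was at 1.48 CPM in Ctrl and 1.53 CPM in KD and Lgals4 at 0, so among these markers the tumour name rests on keratins. Rhox5, the first leading gene of the cluster and outside the marker lists, was at 1210 CPM in Ctrl and 1213 CPM in KD. Its highest level in another class was 3.73 CPM, in Ctrl B cells. Of the 10 genes, 4 were lower past the fold, against 17.6% of 7769 genes, and 0 higher, against 6.37%, with a median of -0.21 beside -0.13 over all genes. The 8 fibroblast markers, all detected, summed to 1922 CPM in Ctrl and 927 CPM in KD, so the mix of cells in the class differed between the libraries. Keratin+ cells, with at least 2 Krt8 or Krt18 UMIs and at most 2 collagen UMIs, numbered 119 Ctrl and 64 KD. Col1a1 was at 2.38 CPM in Ctrl and 3.01 CPM in KD in them, and endothelial markers summed to 27.9 CPM in Ctrl and 165 CPM in KD. Their part in the ratios was not tested.

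In keratin+ cells Nlrc5 was at 193 CPM in Ctrl (173 to 215) and 56.3 CPM in KD (42.5 to 73.1), a log2 ratio of -1.78 (-2.22 to -1.37) or 3.43-fold. Tap2 was at 155 CPM in Ctrl and 79.4 CPM in KD, a ratio of -0.96 (-1.34 to -0.59), Tap1 at 195 CPM in Ctrl and 125 CPM in KD, a ratio of -0.65 (-0.96 to -0.34), and Tapbp at 202 CPM in Ctrl and 129 CPM in KD, a ratio of -0.65 (-0.96 to -0.36). The transactivator and the loading genes were thus the 4 past the fold, against 17.2% of all genes in these cells, as they were in the whole class, where Nlrc5 had a ratio of -1.41 (-1.75 to -1.08). The chains of the molecule did not pass the fold, with H2-K1 at 3468 CPM in Ctrl and 2764 CPM in KD (-0.33 (-0.39 to -0.26)), H2-D1 at 1747 CPM in Ctrl and 1761 CPM in KD and B2m at 2298 CPM in Ctrl and 2219.8 CPM in KD. Psmb8 went the other way, at 609.5 CPM in Ctrl and 737 CPM in KD, a ratio of 0.27 (0.13 to 0.41) that did not reach the fold. The Nlrc5 ratio rests on 325 Ctrl and 56 KD UMIs. With each cell thinned to 1500 UMIs, Nlrc5, keratin+ cells, had a log2 ratio of -0.45, and Nlrc5, tumour-like or fibroblast-like cells, one of -0.34. The thinned ratios of Tap1, keratin+ cells, and Tap2, keratin+ cells, were -1.10 and -2.01, and rest on 8 and 4 KD cells with a UMI. Thinned, 1 gene was past the fold in keratin+ cells and 2 in the whole class, and no share of all genes was computed for thinned cells. The share of keratin+ cells with an Nlrc5 UMI after thinning, 23.9% (16.5 to 32.7) in Ctrl and 18.0% (9.36 to 30.0) in KD, overlapped, against 78.2% and 50% unthinned.

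The inducible subunits take the place of constitutive partners in the same catalytic positions, so the ratio of their UMIs was followed as a measure that does not depend on the total. Because transcripts differ in capture, a ratio is compared between classes and libraries and not read as a share of proteasomes. In granulocytes Psmb8 to Psmb5 was 13.8 (10.6 to 18.1) in Ctrl and 4.42 (3.90 to 5.02) in KD. Psmb9 to Psmb6 was 13.9 (10.8 to 18.3) in Ctrl and 4.91 (4.29 to 5.62) in KD, and Psmb10 to Psmb7 was 2.79 (2.15 to 3.67) in Ctrl and 1.01 (0.860 to 1.19) in KD. None of the 3 pairs of intervals overlapped. Psmb5, Psmb6 and Psmb7 themselves had log2 ratios of 0.32, 0.09 and -0.06 in granulocytes.

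Macrophages were lower in all 3 ratios by less, with Psmb8 to Psmb5 at 8.05 in Ctrl and 6.41 in KD, Psmb9 to Psmb6 at 2.56 in Ctrl and 1.98 in KD and Psmb10 to Psmb7 at 3.42 in Ctrl and 2.54 in KD. In cDCs Psmb9 to Psmb6 was 4.84 (4.41 to 5.32) in Ctrl and 3.77 (3.5 to 4.07) in KD. In CD8+ T cells Psmb8 to Psmb5 was 5.28 in Ctrl and 5.49 in KD, with a log2 change of 0.06 (-0.06 to 0.17). Endothelial-like cells had the lowest Psmb8 to Psmb5 ratio of the classes in both libraries, 2.71 in Ctrl and 2.16 in KD. In Ctrl their interval (2.06 to 3.60) overlapped that of tumour-like or fibroblast-like cells. In tumour-like or fibroblast-like cells Psmb8 to Psmb5 was higher in KD, 3.19 (2.83 to 3.60) in Ctrl and 4.95 (4.23 to 5.81) in KD, while Psmb9 to Psmb6 was lower, 1.28 (1.15 to 1.42) in Ctrl and 1.02 (0.896 to 1.15) in KD, and the intervals of both log2 changes, 0.63 (0.35 to 0.92) and -0.33 (-0.56 to -0.10), left out 0. In NK cells Psmb10 to Psmb7 was 1.88 (1.26 to 2.83) in Ctrl and 4.05 (2.51 to 6.78) in KD, which rests on few UMIs.

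**Figure D4:**
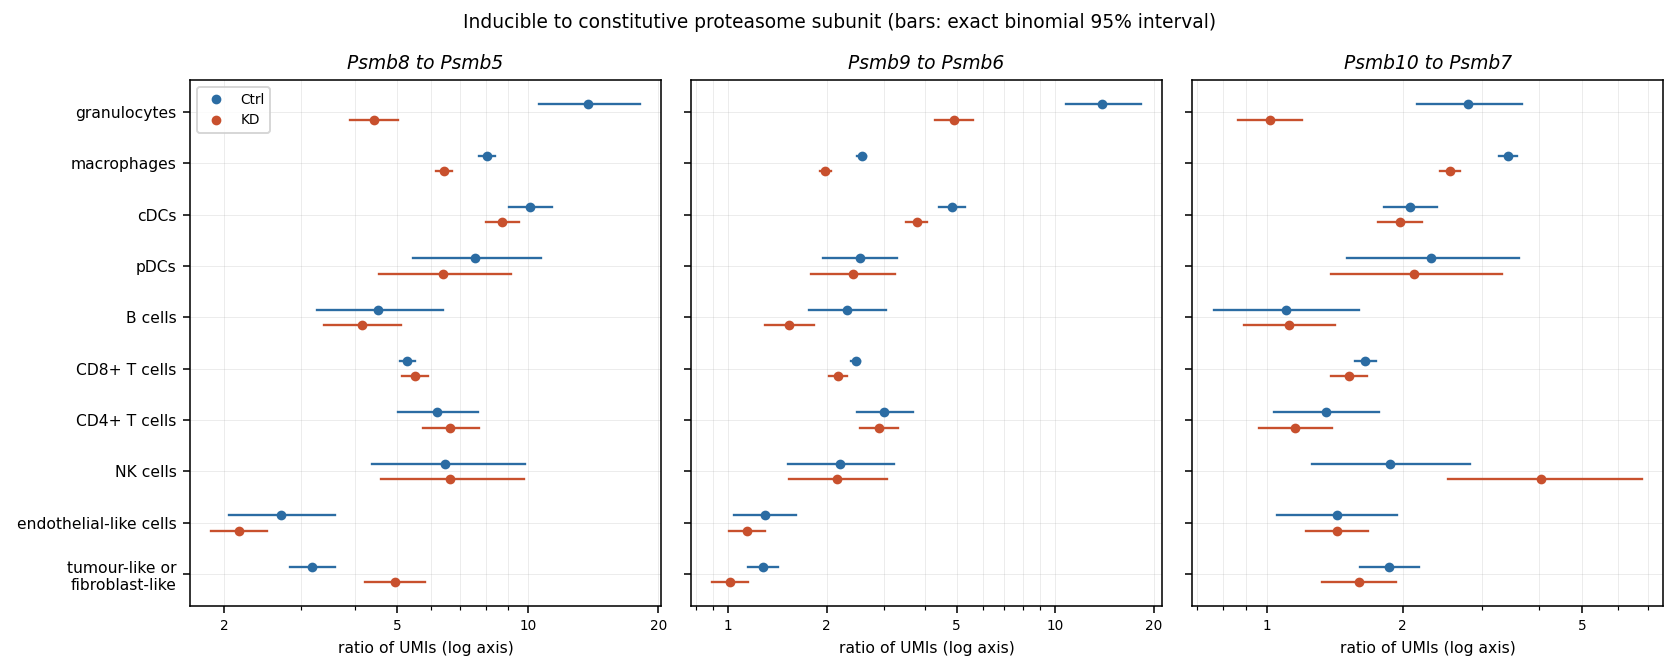
Ratio of UMIs of each inducible subunit to its constitutive partner (log axis) in the 10 classes with at least 50 cells in both libraries, for Ctrl (blue) and KD (orange). Points are ratios and bars exact binomial 95% intervals, and granulocytes move farthest, from 13.8 to 4.42 for Psmb8 to Psmb5.

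The ratio of H2-K1 to H2-D1, the heavy chains with the similar upstream sequence shown above, was lower in KD in each of the 11 classes, by intervals that left out 0 in 8. The widest change was in granulocytes, with 0.733 in Ctrl and 0.456 in KD and a log2 change of -0.68 (-0.76 to -0.61). In macrophages the ratio was 1.54 in Ctrl and 1.16 in KD, a change of -0.41 (-0.43 to -0.38), and in keratin+ cells 1.99 in Ctrl and 1.57 in KD, a change of -0.34 (-0.45 to -0.23). The smallest change was in CD4+ T cells, 2.04 in Ctrl and 1.91 in KD, at -0.09 (-0.21 to 0.02). The 11 classes share the same 2 libraries, so they are not independent, and the part of reads that match both paralogs was not tested.

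Other genes of the pathway were followed by list. The 3 constitutive catalytic subunits had 0 genes past the fold in 9 of the 11 classes. They had 1 lower in Kupffer cells, Psmb6 at -0.93, against 10.2% of all genes, and in NK cells, Psmb7 at -0.95, against 7.85%. Psmb7 enters the NK cell ratio given above. Further, the 11 other core subunits had medians from -0.29 to 0.32 over the classes. Among the 5 proteasome activators and assembly factors, the activator genes Psme1 and Psme2 were lower past the fold in granulocytes, against 15.0% of all genes. Psme2 was at 323 CPM in Ctrl and 105 CPM in KD (log2 ratio -1.62) and Psme1 at -0.92, whereas Pomp, the assembly factor, was at 0.28. Psme2 in macrophages was at 415 CPM in Ctrl and 252 CPM in KD (log2 ratio -0.72). Of the ER folding and trimming genes, 2 of 6 were lower in granulocytes, against the same 15.0%. They were Tapbpl, a tapasin relative, at -1.61 and the trimming peptidase Erap1 at -0.71, while Pdia3 and Calr were at 0.44 and 0.17.

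Of the non-classical class I genes with at least 50 UMIs, 7 of 8 were lower past the fold in granulocytes, against 15.0% of all genes, 4 of 10 in macrophages, against 10.7%, and 0 of 9 in CD8+ T cells, against 5.13%. Counts were 3 of 8 in cDCs, against 5.94%, 2 of 7 in endothelial-like cells, against 10.1%, and 0 in the other classes. In cDCs and in endothelial-like cells 1 gene of the list was higher past the fold, against 5.97% and 7.92%. H2-Q7 was at 342 CPM in Ctrl and 99.2 CPM in KD (log2 ratio -1.79) in granulocytes and H2-Q6 at -1.70, and reads of these 2 neighbours are hard to tell apart. H2-M2, by contrast, was at 6.87 CPM in Ctrl and 21.3 CPM in KD (log2 ratio 1.63) in macrophages.

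The class I transcription factors were lower past the fold in 6 of 9 in granulocytes, against 15.0% of all genes, 6 of 9 in tumour-like or fibroblast-like cells, against 17.6%, 4 of 11 in macrophages, against 10.7%, and 3 of 11 in CD8+ T cells, against 5.13%. They were lower in 4 of 9 in B cells, 3 of 6 in NK cells, with a median of -0.70, 3 of 6 in Kupffer cells, 3 of 11 in cDCs, 2 of 8 in pDCs, 2 of 10 in endothelial-like cells and 1 of 9 in CD4+ T cells, against the shares given above for each class. Irf1, which interferon-gamma induces, was at 884 CPM in Ctrl and 209.8 CPM in KD (log2 ratio -2.08) in granulocytes, 349 CPM in Ctrl and 161 CPM in KD (log2 ratio -1.12) in macrophages and 303 CPM in Ctrl and 106 CPM in KD (log2 ratio -1.51) in tumour-like or fibroblast-like cells.

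In the interferon list, 1 of 7 genes was lower past the fold and 2 higher in granulocytes, against 15.0% and 18.2% of all genes. In macrophages 1 of 8 was lower and 1 higher, against 10.7% and 7.13%. In cDCs 1 of 8 was lower and 2 higher, against 5.94% and 5.97%. In CD8+ T cells 0 of 8 were lower and 1 higher, against 5.13% and 3.92%. In NK cells 1 of 6 was lower and 1 higher, against 7.85% and 4.01%. Socs1, a feedback inhibitor that interferon induces, was at 112 CPM in Ctrl and 17.0 CPM in KD (log2 ratio -2.72) in granulocytes, -1.57 in macrophages and -2.09 in cDCs. Ifngr1, a receptor chain, was higher past the fold in granulocytes (0.69), macrophages (153 CPM in Ctrl and 298 CPM in KD (log2 ratio 0.96)) and cDCs (0.53). Ifng itself was at 458 CPM in Ctrl and 380.1 CPM in KD (log2 ratio -0.27) in CD8+ T cells and 225 CPM in Ctrl and 439 CPM in KD (log2 ratio 0.96) in NK cells. The 2587 Ctrl and 913 KD CD8+ T cells held 10234 and 2847 Ifng UMIs. A cluster with no name whose first leading gene was Ifng (170 Ctrl and 177 KD cells) lies outside these classes.

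Shares of cells with a UMI were taken with each cell thinned to 1500 UMIs. Of the granulocytes, 124 in Ctrl and 182 in KD were shallower and were dropped. Nlrc5 was then seen in 30.1% (26.6 to 33.7) of Ctrl and 8.19% (7.04 to 9.47) of KD granulocytes, with exact Clopper-Pearson intervals, against 36.7% and 13.8% unthinned. For H2-K1 the thinned shares were 87.8% (85.0 to 90.2) and 64.8% (62.7 to 66.9). In macrophages Nlrc5 was seen in 14.8% (13.7 to 16.0) and 7.94% (6.99 to 8.98), and Tap1 in 30.0% (28.6 to 31.5) and 19.9% (18.5 to 21.4). The shares in CD8+ T cells, 20.9% (19.4 to 22.6) and 20.7% (18.1 to 23.4) for Nlrc5, overlapped. As all nucleated cells may carry class I genes, no class gives a background level for them.

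Over the 20 points of 10 classes and 2 libraries, the gene most like the mean of the others was Tap1, with a Pearson correlation of 0.88, followed by Psmb9 at 0.85 and Psmb8 at 0.82, and least like it were H2-D1 at 0.44 and Tapbp at 0.42. Outside the lists, Cox8a (0.85), Sap18 (0.82), Atp5md (0.82), Smim29 (0.80) and Pfkp (0.79) followed the mean of the 10 genes most closely among 13067 genes. Irf1 stood at 0.49. The points share 2 libraries and differ in depth per cell, so these values are a description.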

How the data were processed

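Per the labels, lesions in liver were run on 10x Genomics 3' v3.1 chemistry, and the authors made UMI counts per gene and barcode with Cell Ranger 7.1.0 on GRCm39 (submitters' processing notes), with Seurat 5.1.0 in R 4.4.1 named for later steps. The deposited matrices hold these counts, not normalized. Whether intronic reads were counted and the annotation version are not given in the sources used here.

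Barcodes below 200 genes or above 10% mitochondrial UMIs, 30000 UMIs or 6000 genes were dropped (Seurat 5.3.0, R 4.3.3), as in the study's methods. The upper limits were the only treatment of doublets; as an alternative, 771 Ctrl and 830 KD cells of highest Scrublet score (scanpy 1.11.5) were left out. Clustering used 2000 variable genes less every listed gene, 20 components and resolution 0.5. Clusters were named from at least 3 markers, T cells were split by Cd8a, Cd8b1 and Cd4 UMIs, and NK cells were those of the NK cluster with an NK receptor UMI and no Cd3 UMI. The NK, keratin+ and cDC gates were set after the clusters were seen.

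Depth was 67207234 UMIs over 10416 barcodes in Ctrl and 64444715 over 10943 in KD. UMIs were summed per class and library, and CPM is of the class total. Ratios have exact conditional binomial 95% intervals, ratios of ratios normal intervals from the 4 counts. The background covers genes with at least 50 UMIs in the class over both libraries. The ratio, its interval and the fold rule were run on simulated Poisson counts, the error that the interval assumes. The simulation held no differences between mice, cells or libraries, so it checks the code only. All 10 genes are named in every class. Of other lists, at most the 2 genes of highest and lowest ratio among those with at least 100 UMIs in a class are named, with the 5 genes of most like pattern; Irf1 was also given for likeness, chosen after its values were seen. One gene of the lists is not reported here. The members and lists were chosen with earlier results of these data known.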

Additional observations from a re-analysis of the deposited data

Results flagged for a closer look

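A pair of genes had counting intervals above 0 in one class and below 0 in another. H2-D1 was higher in KD in CD8+ T cells, by a log2 ratio of 0.084, and in NK cells, by 0.22, and was lower in 3 classes, most in granulocytes at -0.48. Psmb8 was higher in tumour-like or fibroblast-like cells, by 0.33, and lower in 8 classes, most in granulocytes at -1.32. Each direction rests on 1 library per group, and the difference between classes was not tested.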

How the results depend on the processing

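No paired analysis was possible because each group had 1 library. Of the 30 ratios past the fold, 377 values under 19 alternatives were computed: 344 stayed at -0.5 or below and 1 changed sign, Psmb10 in granulocyte finer cluster 7 alone, at 0.58. The whole NK cluster, keratin+ cells in place of their class, granulocyte clusters taken apart and macrophages without 3 sub-clusters led by genes of other classes were chosen after seeing the data. The number of the 10 genes lower past the fold stayed within 1.5 times of the reported one except as follows. In granulocytes it was 5 in finer cluster 7 alone. With UMIs per cell it was 1 in macrophages, 0 in cDCs, 5 in Kupffer cells and 5 in endothelial-like cells. After thinning to 1500 UMIs it was 1 in Kupffer cells, 1 in pDCs, 2 in B cells, 2 in CD4+ T cells and 2 in tumour-like or fibroblast-like cells. Classes from marker UMIs gave 4 in Kupffer cells and 1 in pDCs. The stricter filter gave 1 in pDCs and 1 in endothelial-like cells, TMM and DESeq2 factors 1 each in endothelial-like cells, and the mean of per-cell CPM 2 in CD4+ T cells. Of the settings in this list, a share of all genes was computed only for finer cluster 7, given above. Nlrc5, keratin+ cells, went from -1.78 to -0.45 after thinning. The causes were not tested. Thinning leaves fewer UMIs, and it gives each kept cell the same weight, whereas a sum without thinning gives deeper cells more. Log2 changes of subunit ratios outside their counting interval were, after thinning, -1.0 (Psmb10 to Psmb7) in granulocytes, -0.58 (the same pair) in macrophages, 1.13 (Psmb8 to Psmb5) and 1.6 (Psmb10 to Psmb7) in Kupffer cells, -0.45 (Psmb10 to Psmb7) in cDCs, -0.67 (Psmb9 to Psmb6) in pDCs, -0.038 (Psmb9 to Psmb6) in CD8+ T cells, -1.84 (Psmb10 to Psmb7, CD4+ T cells), 0.97 (Psmb8 to Psmb5) in NK cells, -1.13 (Psmb8 to Psmb5) and -0.66 (Psmb9 to Psmb6) in endothelial-like cells and -0.90 (Psmb9 to Psmb6) in tumour-like or fibroblast-like cells. With classes from marker UMIs they were -1.20 (Psmb8 to Psmb5) in granulocytes, -1.05 (Psmb9 to Psmb6) and -1.17 (Psmb10 to Psmb7) in Kupffer cells and -0.16 (Psmb9 to Psmb6) in cDCs. With non-immune cells that held no immune UMI, 1 gene was lowest of all classes in tumour-like or fibroblast-like KD cells. Summed UMIs of a class limit the width of each interval.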

Other observations

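Cells outside the 11 classes were not used above. The rest of the NK cluster, 298 Ctrl and 591 KD cells without the NK gate, had 0 of the 10 genes lower past the fold, against 5.59% of all genes, and a median log2 ratio of -0.12. T cells with neither or both of the Cd8 and Cd4 UMIs (471 and 326 cells) had 1, against 6.3%, and a median of 0.02. A cluster with no name (170 and 177 cells) was led by Ifng, Cd160, Xcl1, Trbc1, Ccl5, Gzma and Prf1, genes of T or NK cells. It had 4, against 10.2%, and a median of -0.37. Collagen+ cells numbered 10 and 14, too few for a ratio.

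Among cDCs, Cd209a+ cells (33 Ctrl and 100 KD cells) had Nlrc5 at 102 CPM in Ctrl and 39.9 CPM in KD, a log2 ratio of -1.35 (-2.17 to -0.50), whereas Ccr7+ cells (48 Ctrl and 60 KD cells), of migratory type, had it at 126 CPM in Ctrl and 154 CPM in KD, a ratio of 0.28 (-0.28 to 0.87). The difference between these types was not tested.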
